A study of Homo sapiens with 24 samples.

Results

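The genes described here are GATA2 and transcription factors that work beside it in blood stem and progenitor cells, measured as RNA in K562 cells in which GATA1 had been repressed. A list of 10 genes was given for this set: GATA2, RUNX1, MYB, LYL1, HHEX, MEIS1, ETV6, FLI1, IKZF1 and ERG. Rows of the count table were taken by gene symbol, which gave 7 of the 10 among 21925 gene entries. All 7 passed the filter on low counts that left 13147 genes for testing. RUNX1, FLI1 and ERG were not analysed here.

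K562 is a human leukaemia cell line of erythroid and megakaryocyte character. Every group, controls included, carried a catalytically dead Cas9 joined to the KRAB repressor domain under a doxycycline-inducible promoter, was transduced with 1 single guide RNA (sgRNA), and received doxycycline for 24 hours. The sgRNAs GATA1TSS-Guide1 and GATA1TSS-Guide2 were directed at the start site of GATA1, eHDAC6-Guide1 and eHDAC6-Guide2 at eHDAC6, a putative enhancer of GATA1, and NC-Guide1 to NC-Guide4 were non-targeting negative controls (NC). With 3 replicates for each of the 8 sgRNAs there were 24 libraries of polyadenylated RNA, each from 10000 lysed cells. It is not stated whether the line is 1 clone. For these genes the comparison asks whether lowering GATA1 goes with more RNA of GATA2 and of the factors that act with it.

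GATA1 and GATA2 are zinc-finger proteins that bind the same short GATA motif. GATA2 works mainly in stem and progenitor cells, GATA1 in erythroid and megakaryocyte cells, and in erythroid maturation GATA1 replaces GATA2 at shared sites and GATA2 itself is shut down, an exchange known as the GATA switch. MYB, LYL1, HHEX, MEIS1, ETV6 and IKZF1 are each needed for the making or upkeep of blood progenitors or of particular blood lineages.

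The sequences upstream of 4 of these genes are shown because their RNA levels carry the comparisons that follow: GATA2, the gene the question names, with 2 annotated starts, MEIS1 and ETV6, the genes with the largest rises under GATA1TSS, and LYL1, whose window alone among these 4 genes holds the motif searched. Each is the 250 bases before an annotated start in RefSeq, build GRCh38.p14, written 5′ to 3′ on the strand of the gene, and capitals mark the motif. All 7 genes were found in the RefSeq promoter table.
GATA2, chr3:128488531-128488780, minus strand: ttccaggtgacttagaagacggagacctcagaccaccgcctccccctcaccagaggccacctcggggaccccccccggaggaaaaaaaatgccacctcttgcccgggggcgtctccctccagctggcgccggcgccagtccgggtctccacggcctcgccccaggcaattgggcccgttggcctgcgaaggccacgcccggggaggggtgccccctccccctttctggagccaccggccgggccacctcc
GATA2, chr3:128493202-128493451, minus strand: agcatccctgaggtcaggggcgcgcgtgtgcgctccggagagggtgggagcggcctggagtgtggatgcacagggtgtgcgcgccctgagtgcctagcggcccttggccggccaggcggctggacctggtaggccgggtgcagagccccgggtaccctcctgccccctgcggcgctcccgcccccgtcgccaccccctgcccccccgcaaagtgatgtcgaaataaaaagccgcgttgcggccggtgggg
MEIS1, chr2:66434875-66435124, plus strand: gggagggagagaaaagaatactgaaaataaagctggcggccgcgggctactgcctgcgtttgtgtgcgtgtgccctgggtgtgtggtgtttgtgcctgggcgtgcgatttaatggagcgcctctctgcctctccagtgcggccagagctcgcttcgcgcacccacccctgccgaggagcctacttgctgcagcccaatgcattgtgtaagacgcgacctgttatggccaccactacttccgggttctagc
ETV6, chr12:11649424-11649673, plus strand: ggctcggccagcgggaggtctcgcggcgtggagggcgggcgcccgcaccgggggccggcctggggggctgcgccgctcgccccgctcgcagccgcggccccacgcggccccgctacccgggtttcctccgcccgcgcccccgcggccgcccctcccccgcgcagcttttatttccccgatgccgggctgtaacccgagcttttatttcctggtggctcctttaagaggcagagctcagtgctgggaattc
LYL1, chr19:13102859-13103108, minus strand: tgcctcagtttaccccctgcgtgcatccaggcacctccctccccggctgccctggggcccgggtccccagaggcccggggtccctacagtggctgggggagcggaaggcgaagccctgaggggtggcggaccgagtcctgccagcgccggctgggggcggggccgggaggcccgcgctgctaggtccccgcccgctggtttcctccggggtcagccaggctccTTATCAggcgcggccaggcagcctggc

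The motif was searched as AGATAA or TGATAA on both strands, 2 forms of the GATA motif that do not overlap one another in these windows. It was present in 14.6% of the 35116 RefSeq windows of the same length. LYL1 held it 1 time, as TGATAA on the opposite strand, 22 to 27 bases before the start, which reads in the line above as its reverse complement. IKZF1 held AGATAA 2 times, at 1 of its 3 starts in the table. No match was found in the 250 bases before the starts of GATA2, MEIS1, ETV6, MYB and HHEX, which says only that these letters are not in those windows.

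Library totals lay between 4290343 counts (GATA1TSS-Guide2 replicate 2) and 23205811, and their median was 13479250.5. The other GATA1TSS libraries had 19204390 to 23205811 counts. The highest total of a control or eHDAC6 library was 16267886 (NC-Guide3 replicate 1), and the part of depth in the comparisons was not tested. Levels are given as CPM, counts relative to the library's total over the tested genes after TMM scaling. GATA1, the targeted gene, stood at 363 ± 28.9 CPM (SD, n = 12) in the controls, 254 ± 8.72 (n = 6) with eHDAC6, 117 ± 18.0 (n = 3) with GATA1TSS-Guide1 and 53.1 ± 9.67 (n = 3) with GATA1TSS-Guide2. No targeted library reached the lowest control. Of 8 marker genes of K562 cells 7 were in the table and none of them had a mean under 1 CPM. In each of 6 lists of 3 or 4 markers of other cell types (T, B, mature myeloid, fibroblast, epithelial, endothelial), 2 or 3 genes had a mean under 1 CPM, and none was at 0 in all 24 libraries. The largest of those summed levels, that of the myeloid list, was 62.4 to 79.1 CPM in the 4 control libraries named next, 60.5 to 89.8 in the remaining controls, 68.2 to 113 with GATA1TSS and 73.7 to 88.7 with eHDAC6.

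The control libraries did not form 1 group, and this bears on nearly every value below. A principal component analysis of the 12 control libraries put replicates 2 and 3 of NC-Guide3 and NC-Guide4 (here the 4) apart from the remaining libraries (the 8) on its first component, with 26.1% of the variance. The labels give no date or batch for them. Neither GATA1 nor any of the 7 listed genes was among the 2000 genes that defined the component. GATA1 was at 361 ± 35.1 CPM (n = 8) in the 8 and 366 ± 12.8 (n = 4) in the 4. The summed CPM of the K562 markers was 11818 to 14097 in the 8, 7616 to 8711 in the 4, 6294 to 10517 with GATA1TSS and 6314 to 9138 with eHDAC6, so the targeted libraries lay nearer the 4. The part that this difference has in the results was not tested. The comparison of each element with the controls is therefore given for all 12, for the 4 and for the 8. In RNA from whole cultures, fewer cells of a type and less RNA per cell cannot be told apart.

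GATA2 was the gene of the set that differed most between the control subsets. It stood at 212, 191 and 175 CPM in the NC-Guide1 libraries, 167, 199 and 192 in those of NC-Guide2, 203, 270 and 293 in those of NC-Guide3, and 191, 276 and 244 in those of NC-Guide4. The 4 were all above the 8, with means of 271 ± 20.6 CPM (n = 4) and 191 ± 14.6 (n = 8), while their GATA1 levels overlapped. The mean log2 CPM of the 8 minus that of the 4 was -0.50 for GATA2, -0.33 for ETV6, -0.31 for LYL1, -0.28 for MEIS1, -0.22 for MYB, -0.21 for HHEX, -0.09 for IKZF1 and -0.02 for GATA1. The ranges of the 8 and the 4 did not overlap for 5 of the 7 genes (GATA2, MYB, HHEX, MEIS1 and ETV6), as for 11.7% of all genes tested, and overlapped for LYL1 and IKZF1. The subsets were themselves read from the data, so these values are a description. In 1 test among the 4 control sgRNAs, GATA2 and LYL1 differed, which makes 2 of the 7 genes, against 12.3% of all genes tested. That share is not steady: the 1618 genes behind it became 268 without NC-Guide2 replicate 1 and 3249 without NC-Guide3 replicate 1, the lowest and highest counts over the 24 fits that left out 1 library. The largest difference between control sgRNAs was 0.46 on the log2 scale for GATA2 (edgeR adjusted p = 0.0258) and 0.40 for LYL1 (edgeR adjusted p = 0.0434). With only the 8 controls neither passed (edgeR adjusted p = 0.875 and 0.159), as for all but 3.76% of genes. The GATA2 difference lost its call without NC-Guide1 replicate 2 (0.46) or replicate 3 (0.46), NC-Guide2 replicate 1 (0.41), or NC-Guide3 replicate 2 (0.42) or replicate 3 (0.35), and the LYL1 difference in 19 of 24 fits that left out 1 library (0.31 to 0.51 over the 24).

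**Figure D1:**
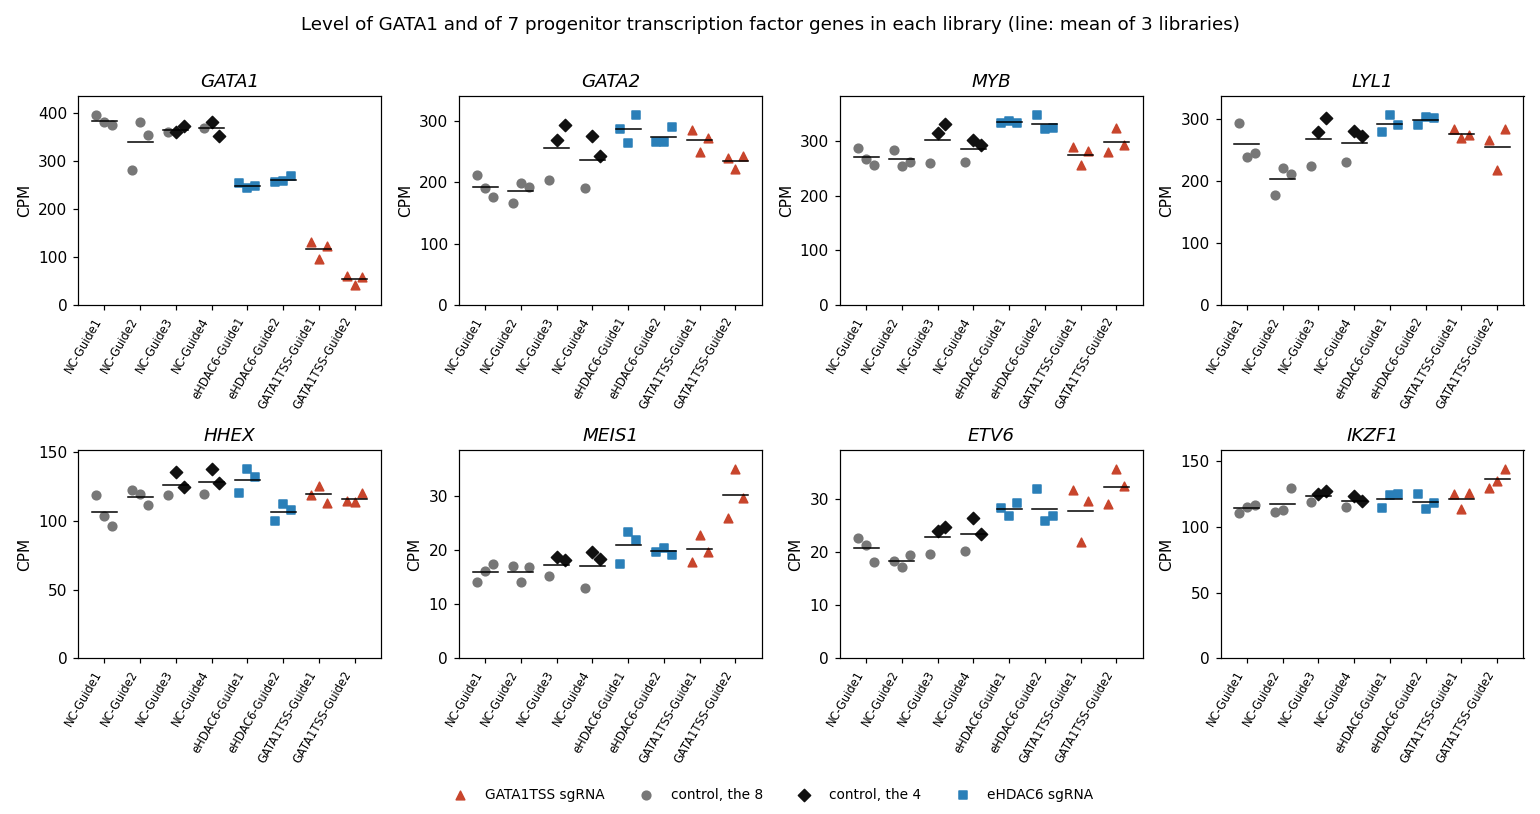
Level of GATA1 and of the 7 transcription factor genes in each of the 24 libraries, in CPM on linear axes that start at 0. Grey circles are the 8 control libraries, black diamonds the 4, blue squares the eHDAC6 libraries and red triangles the GATA1TSS libraries, and each line is the mean of the 3 libraries of an sgRNA. GATA2 in the GATA1TSS libraries (221 to 286 CPM) sits above the 8 controls (167 to 212 CPM) and among or below the 4 (244 to 293 CPM).

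GATA2 with GATA1TSS was higher than in the 8 controls and not higher than in the 4. The GATA1TSS-Guide1 libraries had 286, 250 and 272 CPM and the GATA1TSS-Guide2 libraries 240, 221 and 243 CPM. All 6 values lay above the highest of the 8 controls (as for 4.9% of all genes), none lay above the highest of all 12, and the 3 GATA1TSS-Guide2 values lay below the lowest of the 4. Against all 12 controls the log2 change was 0.22 (SE 0.07, edgeR adjusted p = 0.0241; p-values come from quasi-likelihood tests and are adjusted over all genes), a rise in 6 of 6 libraries. Against the 8 it was 0.41 (SE 0.06, edgeR adjusted p = 8.27e-06) and against the 4 it was -0.11 (SE 0.06, edgeR adjusted p = 0.321), with a 95% interval of -0.23 to 0.02. The sign of the GATA2 change thus depended on which controls were used. The call against all 12 was lost without GATA1TSS-Guide1 replicate 1 (0.20), GATA1TSS-Guide1 replicate 3 (0.22), GATA1TSS-Guide2 replicate 1 (0.21) or GATA1TSS-Guide2 replicate 3 (0.21), without NC-Guide1 (0.17) or NC-Guide2 (0.15), and without GATA1TSS-Guide1 as a whole (0.12). It also did not pass where the spread between sgRNAs entered the error, with counts summed per sgRNA (0.23, edgeR adjusted p = 0.274) or with the element as the group (0.22, edgeR adjusted p = 0.107).

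The sgRNA that lowered GATA1 further did not have the higher GATA2. GATA2 stood at 269 ± 18.2 CPM (n = 3) with GATA1TSS-Guide1 and 235 ± 11.9 (n = 3) with GATA1TSS-Guide2. Their direct difference, GATA1TSS-Guide2 minus GATA1TSS-Guide1, was -0.20 for GATA2 (SE 0.12, edgeR adjusted p = 0.411), with a 95% interval of -0.44 to 0.05, and did not pass. GATA1 itself differed by -1.10 (SE 0.11, edgeR adjusted p = 2.59e-06). Against all 12 controls the GATA2 change was 0.32 with GATA1TSS-Guide1 (SE 0.09, edgeR adjusted p = 0.0242) and 0.12 with GATA1TSS-Guide2 (SE 0.09, edgeR adjusted p = 0.375). The first was lost without GATA1TSS-Guide1 replicate 1 (0.27) or replicate 3 (0.31) and without NC-Guide1 (0.26) or NC-Guide2 (0.25). Against the 4 the GATA2 changes were -0.01 (edgeR adjusted p = 0.995) and -0.20 (edgeR adjusted p = 0.0521), and against the 8 they were 0.51 and 0.30. Among the 6 GATA1TSS libraries GATA2 was lowest, at 221 CPM, where GATA1 was lowest, at 42.1 CPM (GATA1TSS-Guide2 replicate 2, the library with the fewest counts), and highest, at 286 CPM, where GATA1 was highest, at 130 CPM (GATA1TSS-Guide1 replicate 1).

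**Figure D2:**
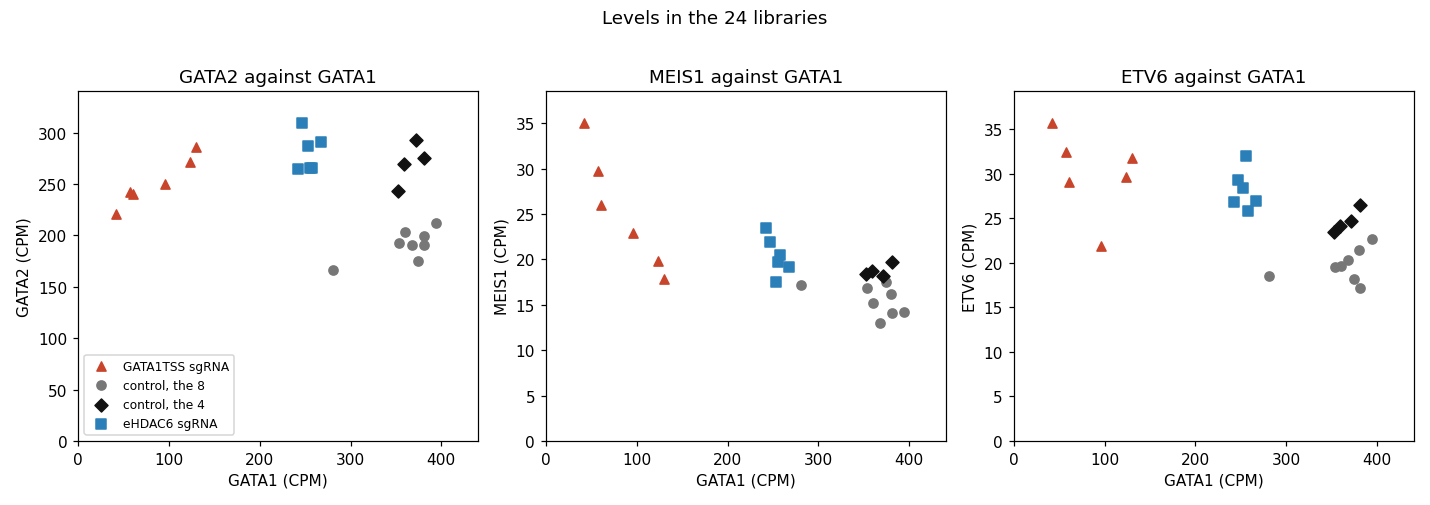
Level of GATA2, MEIS1 and ETV6 (vertical axes, CPM) against the level of GATA1 (horizontal axes, CPM) in the 24 libraries, with 1 point per library and linear axes that start at 0. Among the GATA1TSS libraries (red triangles) GATA2 was lowest (221 CPM) and MEIS1 highest (35.04 CPM) where GATA1 was lowest (42.1 CPM). That library, GATA1TSS-Guide2 replicate 2, had the fewest counts. The 4 controls (black diamonds) and the 8 (grey circles) differ in GATA2 at like GATA1.

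With the eHDAC6 sgRNAs, which lowered GATA1 less, GATA2 was again level with the 4 controls. The libraries had 287, 264 and 310 CPM with eHDAC6-Guide1 and 266, 266 and 291 CPM with eHDAC6-Guide2, all above the 8 controls (as for 8.28% of all genes), and 1 of them was above the highest of the 4. The log2 change was 0.38 against all 12 controls (SE 0.07, edgeR adjusted p = 3.63e-04), 0.56 against the 8 (SE 0.06, edgeR adjusted p = 5.78e-08) and 0.05 against the 4 (SE 0.06, edgeR adjusted p = 0.755; 95% interval -0.08 to 0.18). Against all 12 the call held in every fit that left out 1 library or 1 sgRNA (0.31 to 0.46) and was lost with counts summed per sgRNA (edgeR adjusted p = 0.0962). In that summed fit GATA1 did not pass for eHDAC6 either (edgeR adjusted p = 0.149). eHDAC6 minus GATA1TSS, which uses no control libraries in the contrast, was 0.16 for GATA2 (SE 0.08, edgeR adjusted p = 0.391) and 1.67 for GATA1. The comparisons of GATA1TSS and of eHDAC6 with NC share their control libraries, so their values are set side by side and are not independent of each other.

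The ratio of GATA2 to GATA1 RNA differed far more between the groups than GATA2 itself. On the scale of RPKM, which is CPM per kilobase of exon, GATA1 stood at 245 ± 19.6 and GATA2 at 57.8 ± 11.2 in the 12 controls. With GATA1TSS-Guide2 they stood at 35.9 ± 6.54 and 62.3 ± 3.16 (n = 3). The ratio of GATA2 to GATA1 in RPKM was 0.236 ± 0.0427 (n = 12) in the controls, 0.435 ± 0.0323 (n = 6) with eHDAC6, 0.917 ± 0.0902 (n = 3) with GATA1TSS-Guide1 and 1.77 ± 0.261 (n = 3) with GATA1TSS-Guide2. It was 0.290 ± 0.0163 in the 4 and 0.209 ± 0.0150 in the 8. The ranges of the controls, of eHDAC6 and of each GATA1TSS sgRNA did not overlap. The denominator is the gene whose lowering made the groups, so this separation is not a result about GATA2 and is given without a test. With GATA1TSS-Guide2 nearly all of the shift lay in GATA1 (245 to 35.9 RPKM) and little in GATA2 (57.8 to 62.3 RPKM). GATA2 RNA per length exceeded that of GATA1 in all 3 GATA1TSS-Guide2 libraries, at 1.57 to 2.06, and in GATA1TSS-Guide1 replicate 2, at 1.02. The remaining GATA1TSS-Guide1 libraries were at 0.861 and 0.868, and the highest control library was at 0.310. The ratio depends on the gene models used. With the longest single model in place of all exons, the mean was 1.91 for GATA1TSS-Guide2 and 0.993 for GATA1TSS-Guide1.

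MEIS1, a homeobox factor that works with HOX proteins in stem cells, megakaryocytes and leukaemia, rose with GATA1TSS against each set of controls. The libraries had 17.8, 22.9 and 19.8 CPM with GATA1TSS-Guide1 and 26.0, 35.04 and 29.7 CPM with GATA1TSS-Guide2. The 12 controls ran from 12.95 to 19.7 CPM (median 17.0), the 8 up to 17.5 and the 4 from 18.1 CPM. In MEIS1, 5 of the 6 GATA1TSS libraries were above all 12 controls, GATA1TSS-Guide1 replicate 1 being the exception, and the 3 GATA1TSS-Guide2 libraries stood clear of every other library. The log2 change was 0.56 against all 12 controls (SE 0.09, edgeR adjusted p = 3.67e-05), 0.73 against the 8 (SE 0.10, edgeR adjusted p = 1.40e-06) and 0.38 against the 4 (SE 0.10, edgeR adjusted p = 0.0163). It held in 24 of 24 fits that left out 1 library (0.51 to 0.61).

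The MEIS1 rise rested on GATA1TSS-Guide2, and without that sgRNA the change was 0.28 (edgeR adjusted p = 0.0998). Against all 12 controls it was 0.84 with that sgRNA (SE 0.11, edgeR adjusted p = 3.65e-06) and 0.28 with GATA1TSS-Guide1 (SE 0.11, edgeR adjusted p = 0.109), and against the 4 it was 0.65 (edgeR adjusted p = 3.34e-04) and 0.10 (edgeR adjusted p = 0.902). The direct difference between the sgRNAs was 0.56 (SE 0.15, edgeR adjusted p = 0.0297; 95% interval 0.26 to 0.86). MEIS1 was the only 1 of the 7 genes called in that comparison, in which 3.48% of all genes were called in either direction. The difference lost its call without GATA1TSS-Guide1 replicate 1 (0.48), GATA1TSS-Guide1 replicate 3 (0.55), GATA1TSS-Guide2 replicate 2 (0.46) or GATA1TSS-Guide2 replicate 3 (0.56). Among the 6 GATA1TSS libraries, MEIS1 was highest (35.04 CPM) where GATA1 was lowest (42.1 CPM) and lowest (17.8 CPM) where GATA1 was highest (130 CPM), the reverse of GATA2. The library with the lowest GATA1 was GATA1TSS-Guide2 replicate 2, which had the fewest counts, and the part of depth was not tested. With eHDAC6, MEIS1 stood at 17.6, 23.4 and 21.9 CPM for eHDAC6-Guide1 and 19.7, 20.5 and 19.1 CPM for eHDAC6-Guide2. That was a change of 0.29 against all 12 controls (SE 0.09, edgeR adjusted p = 0.0176), 0.46 against the 8 (SE 0.10, edgeR adjusted p = 5.07e-04) and 0.11 against the 4 (edgeR adjusted p = 0.647). The call against all 12 was lost without eHDAC6-Guide1 replicate 2 (0.25), without all of eHDAC6-Guide1 (0.26) or without all of eHDAC6-Guide2 (0.33). eHDAC6 minus GATA1TSS was -0.27 for MEIS1 (SE 0.10, edgeR adjusted p = 0.218).

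ETV6, an ETS-family repressor needed for adult blood stem cells and platelet formation, was higher with both elements than in most controls. The libraries had 31.7, 21.9 and 29.7 CPM with GATA1TSS-Guide1, 29.0, 35.7 and 32.5 with GATA1TSS-Guide2, 28.4, 26.8 and 29.4 with eHDAC6-Guide1 and 31.99, 25.8 and 26.9 with eHDAC6-Guide2. The 8 controls ran from 17.2 to 22.7 CPM and the 4 from 23.5 to 26.5 CPM. In each element, 5 of 6 libraries were above all 12 controls. With GATA1TSS the log2 change was 0.49 against all 12 controls (SE 0.08, edgeR adjusted p = 6.01e-05), 0.62 against the 8 (SE 0.09, edgeR adjusted p = 6.53e-06) and 0.27 against the 4 (SE 0.10, edgeR adjusted p = 0.0894), the last with a 95% interval of 0.06 to 0.47. Both GATA1TSS sgRNAs gave a call against all 12, 0.39 for GATA1TSS-Guide1 (SE 0.10, edgeR adjusted p = 0.0153) and 0.59 for GATA1TSS-Guide2 (SE 0.11, edgeR adjusted p = 1.27e-04). That of GATA1TSS-Guide1 was lost without its replicate 1 (0.28) or replicate 3 (0.34) or without NC-Guide2 (0.32). Against the 4, GATA1TSS-Guide2 alone still passed, at 0.37 (edgeR adjusted p = 0.0293), while GATA1TSS-Guide1 stood at 0.17 (edgeR adjusted p = 0.755). The sgRNAs themselves did not pass as different (0.21, 95% interval -0.07 to 0.48). With eHDAC6 the change of ETV6 was 0.41 against all 12 (SE 0.08, edgeR adjusted p = 5.93e-04), 0.54 against the 8 (SE 0.09, edgeR adjusted p = 3.93e-05) and 0.19 against the 4 (SE 0.10, edgeR adjusted p = 0.383).

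IKZF1, the zinc-finger factor Ikaros of lymphoid and other blood lineages, lay close to the controls except with GATA1TSS-Guide2. It stood at 125, 114 and 126 CPM with GATA1TSS-Guide1 and at 129, 135 and 144 CPM with GATA1TSS-Guide2, against 110 to 129 CPM in the 12 controls. The 3 GATA1TSS-Guide2 libraries were above all 12 controls, as they were for MEIS1 and ETV6, which makes 3 of the 7 genes against 5.52% of all genes. With that sgRNA the change was 0.20 against all 12 (SE 0.06, edgeR adjusted p = 0.0144), 0.25 against the 8 (SE 0.07, edgeR adjusted p = 0.00660) and 0.14 against the 4 (SE 0.07, edgeR adjusted p = 0.166), and the first was lost without GATA1TSS-Guide2 replicate 3 (0.15) or without NC-Guide1 (0.18). For both GATA1TSS sgRNAs together IKZF1 stood at 0.05 against the 4 (SE 0.06, edgeR adjusted p = 0.627) and rose by 0.17 against the 8 (SE 0.06, edgeR adjusted p = 0.0185). Against all 12 it stood at 0.12 (SE 0.05, edgeR adjusted p = 0.0607), and this passed with DESeq2 (adjusted p = 0.0369) or a stricter filter (edgeR adjusted p = 0.0308). It also passed without GATA1TSS-Guide1 replicate 2 (0.14), NC-Guide2 replicate 3 (0.13) or NC-Guide4 replicate 3 (0.13). With eHDAC6 it stood at 0.01 against all 12 (SE 0.05, edgeR adjusted p = 0.845), 0.07 against the 8 (SE 0.06, edgeR adjusted p = 0.347) and -0.05 against the 4 (SE 0.06, edgeR adjusted p = 0.738).

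MYB, a factor that keeps progenitors dividing and falls in terminal maturation, rose with eHDAC6 against all 12 controls and against the 8, and with GATA1TSS against the 8 only. Its levels were 290, 257 and 281 CPM with GATA1TSS-Guide1 and 280, 325 and 293 CPM with GATA1TSS-Guide2. In the eHDAC6 libraries they were 334, 337 and 334 CPM for eHDAC6-Guide1 and 348, 322 and 324 CPM for eHDAC6-Guide2, against 255 to 288 CPM in the 8 controls and 294 to 332 CPM in the 4. All 6 eHDAC6 libraries lay above the 8, and 4 of them above all 12 controls. The change with eHDAC6 was 0.25 against all 12 (SE 0.05, edgeR adjusted p = 9.90e-04), 0.36 against the 8 (SE 0.05, edgeR adjusted p = 7.58e-06) and 0.10 against the 4 (SE 0.05, edgeR adjusted p = 0.412). With GATA1TSS it was 0.03 against all 12 (SE 0.05, edgeR adjusted p = 0.724), 0.14 against the 8 (SE 0.05, edgeR adjusted p = 0.0425) and -0.12 against the 4 (SE 0.05, edgeR adjusted p = 0.203). Of the GATA1TSS sgRNAs, GATA1TSS-Guide2 passed against the 8 (0.19, edgeR adjusted p = 0.0274) and GATA1TSS-Guide1 did not (0.09, edgeR adjusted p = 0.336). eHDAC6 minus GATA1TSS was 0.21 for MYB (SE 0.06, edgeR adjusted p = 0.0703). This direct difference did not pass in the fit with all libraries. It passed with only the 4 controls (SE 0.0487, edgeR adjusted p = 0.0112) or only the 8 (SE 0.0530, edgeR adjusted p = 0.0195). Its size was almost the same (0.22), with the 12 targeted libraries unchanged. In the fit with all libraries, NC-Guide3 and NC-Guide4 each held libraries of both control subsets as replicates, so the difference between the subsets entered the shared error. The MYB difference passed as well without NC-Guide2 replicate 1, NC-Guide3 replicate 1 or NC-Guide3 replicate 3 (0.22 each).

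LYL1, a basic helix-loop-helix factor that can act in the same complexes as GATA2, had changes of the same sign as GATA2 against each set of controls. Its spread among the controls rested more on NC-Guide2. Without that sgRNA the largest LYL1 difference between control sgRNAs was 0.0511 (edgeR adjusted p = 0.955), against 0.41 for GATA2 (edgeR adjusted p = 0.132). LYL1 stood at 284, 269 and 274 CPM with GATA1TSS-Guide1 and at 266, 218 and 283 CPM with GATA1TSS-Guide2. The eHDAC6 libraries had 279, 306 and 291 CPM and 290, 303 and 301 CPM. The 8 controls ran from 178 to 293 CPM, a range that held all 6 GATA1TSS values, and the 4 from 272 to 302 CPM. With GATA1TSS the change was 0.11 against all 12 (SE 0.07, edgeR adjusted p = 0.235), 0.25 against the 8 (edgeR adjusted p = 0.00492) and -0.09 against the 4 (edgeR adjusted p = 0.405). Without NC-Guide2 the LYL1 change with GATA1TSS was 0.0189. With eHDAC6 it was 0.26 against all 12 (SE 0.07, edgeR adjusted p = 0.00414), 0.40 against the 8 (SE 0.07, edgeR adjusted p = 3.37e-05) and 0.06 against the 4 (edgeR adjusted p = 0.723). The call against all 12 was lost without eHDAC6-Guide2 (0.25) or NC-Guide2 (0.17). For LYL1, eHDAC6 minus GATA1TSS was 0.15 (edgeR adjusted p = 0.367).

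HHEX, a homeobox repressor of early blood and endothelial cells, gave no call for either element as a whole, with any set of controls, and 1 call each way for single eHDAC6 sgRNAs. Its GATA1TSS libraries stood at 113 to 125 CPM and the 12 controls at 96.2 to 138 CPM. The changes against all 12 controls were -0.02 with GATA1TSS (SE 0.05, edgeR adjusted p = 0.832) and -0.02 with eHDAC6 (SE 0.05, edgeR adjusted p = 0.821). Against the 8 they were 0.05 and 0.06, and neither passed, and against the 4 both were -0.16 (edgeR adjusted p = 0.0926 and 0.193). Behind the eHDAC6 values, HHEX stood at 120, 137 and 132 CPM for eHDAC6-Guide1 and 99.5, 112 and 108 CPM for eHDAC6-Guide2. The log2 difference, eHDAC6-Guide2 minus eHDAC6-Guide1, was -0.29 (SE 0.08, edgeR adjusted p = 0.9997, 95% interval -0.46 to -0.11). None of the 7 genes passed in that comparison, and 0.0152% of all genes did. Before adjustment over genes, HHEX was the only 1 of the 7 under the threshold in edgeR, and 477 of all 13147 genes were. eHDAC6-Guide2 minus NC was -0.16 for HHEX (edgeR adjusted p = 0.0961), -0.09 against the 8 controls (edgeR adjusted p = 0.394) and -0.30 against the 4, a fall that passed (edgeR adjusted p = 0.0260) where 0.754% of all genes fell. eHDAC6-Guide1 minus NC was 0.12 (edgeR adjusted p = 0.200), -0.02 against the 4 (edgeR adjusted p = 0.949) and 0.20 against the 8, a rise that passed (edgeR adjusted p = 0.0420) where 16.5% of all genes rose.

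Counted together, 3 of the 7 genes rose with GATA1TSS against all 12 controls (GATA2, MEIS1 and ETV6) and none fell, where 13.5% of all genes rose and 13.7% fell. Against the 4 controls 1 rose (MEIS1), where 4.84% of all genes rose and 5.39% fell, and against the 8 controls 6 rose (all but HHEX), where 18.9% rose and 14.2% fell. The median log2 change of the 7 was 0.12, -0.09 and 0.25 in these fits, and that of all genes 0.00 or 0.02 in size. With eHDAC6, 5 of the 7 rose against all 12 (GATA2, MYB, LYL1, MEIS1 and ETV6), where 15.8% of all genes rose and 15.3% fell. Against the 4 controls 0 rose in edgeR, where 0.899% of all genes rose and 0.587% fell, and against the 8 controls 5 rose, where 21.3% rose and 15.8% fell. Before adjustment over genes, 1 of the 7 was under the threshold of 0.05 between eHDAC6 and the 4 controls in edgeR, as were 1934 of all 13126 genes. This 1 was HHEX, which was lower (-0.16). The medians were 0.26, 0.06 and 0.40. With GATA1TSS-Guide1, 2 rose against all 12 (6.21% of all genes), 0 against the 4 (0.213%) and 4 against the 8 (14.8%). Before adjustment over genes, the comparison of GATA1TSS-Guide1 with the 4 had 1 gene of the 7 under the threshold in edgeR (MYB, lower, -0.17). It had 1194 of all 13126 genes under it. With GATA1TSS-Guide2, 3 rose (12.4%), 2 against the 4 (9.33%) and 5 against the 8 (16%). With eHDAC6-Guide1, 4 rose (9.33%), 0 against the 4 (0.274%) and 6 against the 8 (16.5%). Before adjustment in edgeR, 0 of the 7 were under the threshold between this sgRNA and the 4, and 1528 of all 13126 genes were. With eHDAC6-Guide2, 4 rose (10.3%), 0 against the 4 (0.945%) and 5 against the 8 (16.9%). No gene of the 7 was called by edgeR in eHDAC6 minus GATA1TSS, where 1.53% of all genes were. Before adjustment over genes 2 were under the threshold, MYB and MEIS1, as were 1974 of all 13147 genes. DESeq2 called 1 (MYB), and edgeR called 1 (MYB) with only the 4 controls (4.9% of all genes) or only the 8 (3.82%).

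The shares of all genes depended on single libraries in most comparisons of 1 sgRNA. Against all 12 controls the genes called in either direction numbered 1579 for GATA1TSS-Guide1, 2192 for eHDAC6-Guide1 and 2521 for eHDAC6-Guide2. Leaving out any 1 of the 3 libraries of the sgRNA itself lowered these counts by over 1.5 times, to 537 at the lowest for GATA1TSS-Guide1 (without its replicate 1), 875 for eHDAC6-Guide1 (without its replicate 3) and 977 for eHDAC6-Guide2 (without its replicate 3). The 457 genes of GATA1TSS-Guide2 minus GATA1TSS-Guide1 became 178 without GATA1TSS-Guide1 replicate 1 and 636 without NC-Guide2 replicate 1. The 201 genes of eHDAC6 minus GATA1TSS became 72 without GATA1TSS-Guide1 replicate 2 and 361 without NC-Guide3 replicate 1. For GATA1TSS, eHDAC6 and GATA1TSS-Guide2 against all 12 controls the counts stayed within 1.5 times of their values of 3580, 4088 and 3259.

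**Figure D3:**
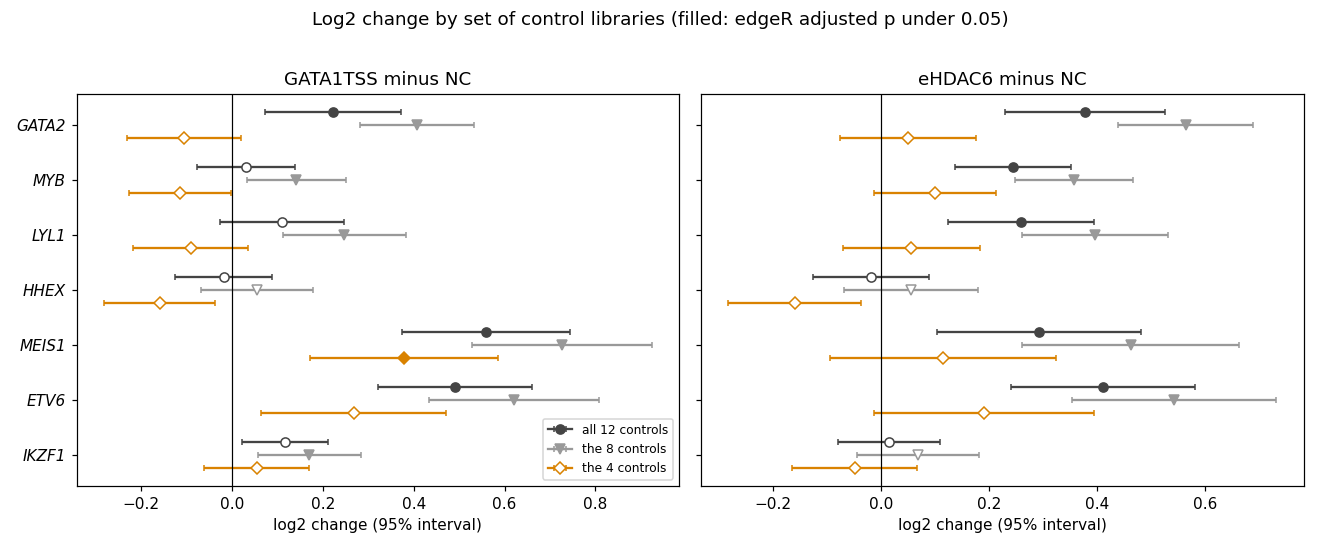
Log2 change of the 7 genes for GATA1TSS minus NC (left) and eHDAC6 minus NC (right), with 95% intervals from the edgeR fit. Circles use all 12 control libraries, triangles the 8 and diamonds the 4, and filled symbols have an adjusted p under 0.05. Against the 4 controls MEIS1 with GATA1TSS (0.38) is the only filled symbol, and the values of GATA2, MYB and LYL1 with GATA1TSS lie below 0.

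On the RPKM scale, which allows genes to be set in order, LYL1 was the most abundant of the 7 in the controls at 139 ± 21.0 (n = 12). MYB followed at 76.5 ± 6.88, HHEX at 67.9 ± 6.73 and GATA2 at 57.8 ± 11.2. MYB and HHEX, and HHEX and GATA2, differed by less than the sum of their SDs. IKZF1 at 14.3 ± 0.762, MEIS1 at 5.22 ± 0.658 and ETV6 at 3.57 ± 0.490 were far lower. The 2 genes with the largest rises under GATA1TSS were thus the 2 least abundant. With GATA1TSS-Guide2, MEIS1 reached 9.50 ± 1.44 and ETV6 5.42 ± 0.559 (n = 3). With both elements the mean of GATA2 lay above that of HHEX, at 66.9 ± 6.22 against 66.8 ± 2.78 with GATA1TSS and 74.5 ± 4.89 against 67.2 ± 8.24 with eHDAC6. These differences were within the sum of the SDs, and the order of the other genes was that of the controls.

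The pattern of GATA2 over the 24 libraries was most like that of genes which also separated the control subsets. Among the 9976 tested genes whose mean was 5 CPM or more, the highest Pearson correlations of log2 CPM with GATA2 were those of SMG9 (0.957), CTC1 (0.949), ARAP3 (0.947), ARHGEF1 (0.946) and PLCB3 (0.945). Each had a higher mean in the 4 controls than in the 8, for example 105 against 78.3 CPM for SMG9 and 135 against 75.2 CPM for ARAP3. Of the set itself, LYL1 was nearest to GATA2 over the 24 libraries (r = 0.834), then MYB (0.718), ETV6 (0.716), HHEX (0.376), MEIS1 (0.364) and IKZF1 (0.318). These pooled values mix groups with different means, and the values within the controls and within the targeted libraries differed from them. Both groups are themselves mixtures, the controls of the 8 and the 4 and the targeted libraries of the sgRNAs of 2 elements. Within the 12 controls r with GATA2 was 0.811 for LYL1, 0.837 for MYB, 0.870 for ETV6, 0.707 for HHEX, 0.530 for MEIS1 and 0.608 for IKZF1. Within the 12 targeted libraries it was 0.690 for LYL1, 0.317 for MYB, -0.230 for ETV6, 0.159 for HHEX, -0.825 for MEIS1 and -0.497 for IKZF1. LYL1 thus had a high value in both groups, and ETV6, MEIS1 and IKZF1 had opposite signs in them. The correlations are descriptions, since the libraries share 8 sgRNAs and 2 control subsets.

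The wider set of progenitor factors moved in both directions. A list of 35 partners and other blood progenitor factors had 29 genes in the table and 23 tested, and with GATA1TSS 7 rose and 9 fell against all 12 controls, where 13.5% of all genes rose and 13.7% fell. Against the 4 controls 4 rose and 5 fell (4.84% and 5.39% of all genes), and against the 8, where 26 were tested, 7 rose and 8 fell (18.9% and 14.2%). Called rises with the largest changes were those of SPI1, the myeloid and lymphoid factor PU.1 (0.71; 0.27 against the 4), ID3, an inhibitor of helix-loop-helix factors (0.69; 0.31), and GFI1, a repressor (0.48; 0.56), while HOXB4 rose by 0.32 and stood at 0.01 against the 4. GFI1 (0.18) and LDB1 (-0.23) lost their calls without GATA1TSS-Guide2. Called falls were those of KLF1, the erythroid Krüppel-like factor (-0.96; -0.85), MYC (-0.73; -0.61) and LDB1, the bridging protein of GATA complexes (-0.47; -0.49), and RUNX2 fell by 0.62 against all 12 and stood at -0.29 against the 4. RUNX2 lost its call without GATA1TSS-Guide2 replicate 1 (-0.50) or without GATA1TSS-Guide1 (-0.55). Both RUNX2 (1.61 to 4.78 CPM over the 24 libraries) and GFI1 (2.17 to 5.69 CPM) were weakly expressed. The median of the list was 0.06 against all 12 controls, 0.01 against the 4 and -0.01 against the 8.

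With eHDAC6, 4 of the 23 partner genes rose and 7 fell against all 12 (15.8% and 15.3% of all genes). Against the 4 controls 1 rose and 0 fell (0.899% and 0.587%). Before adjustment over genes 5 were under the threshold there in edgeR, as were 1934 of all 13126 genes. Against the 8 controls 6 of 26 rose and 6 fell (21.3% and 15.8%). The medians were -0.04, -0.02 and -0.03. The 4 that rose were SPI1 (0.70), ID3 (0.58), HOXB4 (0.38) and ID2, an inhibitor of the same kind as ID3 (0.30). With only the 4 controls SPI1 rose by 0.26 (edgeR adjusted p = 0.0303), and ID3 stood at 0.20, HOXB4 at 0.07 and ID2 at 0.06. The falls with the largest changes were those of RUNX2 (-0.62), KLF1 (-0.36), LMO2, which joins LDB1 in GATA complexes (-0.33), and MYC (-0.29). Against the 4 they stood at -0.28, -0.25, -0.08 and -0.17. The weakly expressed RUNX2 (1.61 to 4.78 CPM over the 24 libraries) lost its call without eHDAC6-Guide1 (-0.62) or eHDAC6-Guide2 (-0.60). ID2 lost its call without eHDAC6-Guide2 (0.16) or NC-Guide2 (0.24).

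A second list held 9 genes tied to the exchange of GATA2 for GATA1 or to progenitors, MYB, LYL1 and HHEX among them. CD34 was not analysed here and the other 8 were tested. With GATA1TSS 1 rose (HDC, histidine decarboxylase) and 1 fell (MYC) against all 12 controls, where 13.5% of all genes rose and 13.7% fell. Against the 4 controls 1 rose (KIT) and 1 fell (MYC), where the shares were 4.84% and 5.39%, and against the 8 controls 4 rose (HDC, MYB, LYL1 and VIM, the gene of the filament protein vimentin) and 1 fell (MYC), where they were 18.9% and 14.2%. HDC was weakly expressed, at 1.14 ± 0.230 CPM (n = 6) against 0.647 ± 0.420 (n = 12), a change of 0.92 (SE 0.32, edgeR adjusted p = 0.0351) whose call was lost in 11 of 24 fits that left out 1 library (0.78 at the lowest) and against the 4 (0.90, edgeR adjusted p = 0.178). KIT, the stem cell factor receptor, stood at 0.17 against all 12 (SE 0.11, edgeR adjusted p = 0.265) and rose by 0.44 against the 4 (SE 0.14, edgeR adjusted p = 0.0373). The level of KIT was 20.4 ± 2.63 CPM (n = 3) with GATA1TSS-Guide1, 26.1 ± 3.07 (n = 3) with GATA1TSS-Guide2 and 17.2 ± 4.13 (n = 4) in the 4, and its change against all 12 passed without NC-Guide1 (0.34). VIM stood at 0.15 against all 12 (SE 0.08, edgeR adjusted p = 0.196), -0.12 against the 4 and 0.38 against the 8. SPRED1, a brake on the Ras pathway, stood at 0.03 against all 12 (edgeR adjusted p = 0.817).

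With eHDAC6, 3 of the 8 genes of the second list rose against all 12 controls (HDC, MYB and LYL1) and 2 fell (MYC and SPRED1), where 15.8% of all genes rose and 15.3% fell. In the fit with the 4 controls 0 were called in edgeR, where 0.899% of all genes rose and 0.587% fell. Before adjustment over genes 5 were under the threshold in that fit, as were 1934 of all 13126 genes. Against the 8 controls 4 rose (HDC, MYB, LYL1 and VIM) and 1 fell (MYC), where 21.3% rose and 15.8% fell. HDC stood at 1.29 ± 0.495 CPM (n = 6), a change of 1.05 (SE 0.33, edgeR adjusted p = 0.0178) that was lost without eHDAC6-Guide1 replicate 1 (0.85) or eHDAC6-Guide2 replicate 3 (0.93) and did not pass against the 4 (1.03, edgeR adjusted p = 0.235). The fall of SPRED1 was -0.19 (SE 0.07, edgeR adjusted p = 0.0359), did not pass against the 4 (-0.27, edgeR adjusted p = 0.124) or the 8 (-0.13, edgeR adjusted p = 0.208), and was lost in 10 of 24 fits that left out 1 library. VIM stood at 0.20 against all 12 (SE 0.08, edgeR adjusted p = 0.0774), -0.08 against the 4 and 0.42 against the 8 (edgeR adjusted p = 1.70e-05). KIT stood at 0.20 against all 12 (edgeR adjusted p = 0.175) and 0.47 against the 4 (edgeR adjusted p = 0.0861).

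In the gene models deposited with the series, on hg19, GATA2 lies at chr3:128198265-128212030 on the minus strand with 3 models, and MEIS1 at chr2:66662532-66799891 and ETV6 at chr12:11802788-12048325 on the plus strand with 1 model each. LYL1 lies at chr19:13209842-13213974 on the minus strand, and MYB at chr6:135502453-135540311, HHEX at chr10:94449681-94455408 and IKZF1 at chr7:50343679-50472798 on the plus strand. No exon of the 7 genes overlapped an exon of another gene in these models. The counts are per gene symbol, so the 3 GATA2 models and the 17 of IKZF1 cannot be told apart.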

How the data were processed

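Each library has 1 column of raw counts per gene symbol, as the authors deposited them, and the authors' hg19 RefSeq gene models were used for lengths. Bowtie2 (2.1.0), TopHat2 (2.0.8), SAMtools (0.1.19) and Picard stand in the submitters' processing notes, which give hg19 as the build. How reads were assigned to genes, and whether strand was used, was not stated in the labels.

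Libraries were grouped by their labels. edgeR (4.0.16, R 4.3.3) was run on the 24 libraries with TMM scaling, filterByExpr by sgRNA (count 10, total 15, proportion 0.7), 1 coefficient per sgRNA and quasi-likelihood F tests. An element is the mean of its 2 sgRNAs, p-values were adjusted over all genes (Benjamini-Hochberg) and a call is an adjusted p under 0.05. Standard errors came from the F statistic. The error is the spread between the 3 replicates of an sgRNA, which the series calls biological, and holds the spread between sgRNAs only where counts were summed per sgRNA or the element was the group. The code was tested on simulated data. CPM used TMM-scaled totals, log2 CPM a prior count of 2, and RPKM the union of exons.

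No 2 replicates of an sgRNA agreed within sampling noise. The genes, the lists and the control subsets were chosen with earlier results of these data known. Named are GATA1, the 10 listed genes, called genes of the partner list with the largest changes (up to 4 each way per element), members of the second list, and the 5 genes nearest to GATA2. Alternatives were DESeq2 (1.42.0), its size factors, other filters, the control subsets, a replicate block, and leaving out each library or sgRNA.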

Additional observations from a re-analysis of the deposited data

Results flagged for a closer look

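LYL1 stood at 218.0 CPM in GATA1TSS-Guide2 replicate 2, far below the other 5 GATA1TSS libraries (266 to 284 CPM). This was the library with the fewest counts, at 4290343, and the part of depth in the low value was not tested. Of 16 groups of 6 libraries examined for a library far from the rest (8 genes with 2 elements), it was the only 1, and chance alone marks about 1 in 20. Without it the LYL1 change with GATA1TSS was 0.16.

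The effects of the GATA1TSS sgRNAs differed by their direct test for GATA1 (-1.10 on the log2 scale, GATA1TSS-Guide2 minus GATA1TSS-Guide1) and for MEIS1 (0.56). The elements differed for GATA1 (1.67, eHDAC6 minus GATA1TSS).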

How the results depend on the processing

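The choice of control libraries and the summing of counts per sgRNA each changed many results, and the cause was not tested for the first. Of the log2 changes of named genes, 29 of 60 changed call or sign with only the 4 controls, 11 of 62 with only the 8, and 23 of 41 lost their call with counts summed per sgRNA. With only the 4 controls the number of the 7 genes called went from 3 to 1 for GATA1TSS, from 5 to 0 for eHDAC6, from 2 to 0 for GATA1TSS-Guide1, from 4 to 0 for eHDAC6-Guide1 and from 4 to 1 (HHEX, lower) for eHDAC6-Guide2, each against NC, and from 0 to 1 for eHDAC6 minus GATA1TSS. With only the 8 these were 6, 5, 4, 6, 5 and 1, that of GATA1TSS-Guide2 went from 3 to 5, and that among the control sgRNAs from 2 to 0. With only the 4, the log2 change turned to -0.11 for GATA2, -0.12 for MYB and -0.0915 for LYL1 with GATA1TSS, to -0.0489 for IKZF1 with eHDAC6, and for GATA2 to -0.00663 with GATA1TSS-Guide1 and -0.20 with GATA1TSS-Guide2. With only the 8, HHEX turned to 0.0543 with GATA1TSS and 0.0554 with eHDAC6. With counts summed per sgRNA (fewer samples) 0 of the 7 genes were called for eHDAC6, and GATA1 itself did not pass (-0.51, edgeR adjusted p = 0.149). With GATA1TSS, MEIS1 (0.54) and ETV6 (0.47) kept their calls in that fit (edgeR adjusted p = 0.0365 each). They also kept them with the element as the group (edgeR adjusted p = 3.32e-04 and 3.22e-04). DESeq2 called 1 of the 7 genes for eHDAC6 minus GATA1TSS.

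Leaving out 1 sgRNA gave 3 calls for eHDAC6 (without eHDAC6-Guide2), 1 and 0 for GATA1TSS-Guide1 (without NC-Guide1 and NC-Guide2), 2 for eHDAC6-Guide1 and 0 for eHDAC6-Guide2 (without NC-Guide2), 1 for eHDAC6 minus GATA1TSS (without GATA1TSS-Guide1 or NC-Guide3), and, among the control sgRNAs, 1 (without eHDAC6-Guide1, eHDAC6-Guide2 or GATA1TSS-Guide1) or 0 (without NC-Guide1 or NC-Guide2). Without GATA1TSS-Guide2, MYB with GATA1TSS was -0.0240, HHEX 0.00293 and KIT -0.000554, and MEIS1 in eHDAC6 minus GATA1TSS was 0.0135. HHEX was 0.00937 and 0.0187 with GATA1TSS without NC-Guide3 and NC-Guide4, and 0.00968 and 0.0213 with eHDAC6, where it was 0.12 without eHDAC6-Guide2. IKZF1 with eHDAC6 was -0.00930 without NC-Guide1. Over the fits without 1 sgRNA, the calls among all genes moved too. They ran from 1993 to 4777 for eHDAC6, 728 to 2586 for GATA1TSS-Guide1, 1066 to 3117 for eHDAC6-Guide1 and 1357 to 3467 for eHDAC6-Guide2. For eHDAC6 minus GATA1TSS they ran from 4 to 915, and among the control sgRNAs from 224 to 2318.

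Leaving out 1 library gave 0 to 2 calls for GATA1TSS-Guide1, 0 to 5 for eHDAC6-Guide1, 1 to 4 for eHDAC6-Guide2, 0 to 1 for GATA1TSS-Guide2 minus GATA1TSS-Guide1, 0 to 1 for eHDAC6 minus GATA1TSS and 0 to 3 among the control sgRNAs. In the same order, the calls among all genes ran from 537 to 2152, 875 to 2810, 977 to 3121, 178 to 636, 72 to 361 and 268 to 3249. HHEX ran from -0.0385 to 0.00180 with GATA1TSS and from -0.0397 to 0.00805 with eHDAC6, and IKZF1 from -0.00396 to 0.0344 with eHDAC6.

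The replicate numbers did not pair the libraries: 29 of 84 same-numbered pairs had a correlation of deviations over 0.1, and 9 of 24 libraries were closest to their own number. With the number as a block, 3 genes were called for GATA1TSS, 5 for eHDAC6 and 5 for eHDAC6-Guide1 (4 without it), and the other counts were as without it. Depth limits GATA1TSS-Guide2 replicate 2, at 4290343 counts, most. The comparison among control sgRNAs was not run with the 4, which hold 2 sgRNAs.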
